A study of Caenorhabditis elegans with 24 samples.

Results

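VC3201, a Caenorhabditis elegans strain that the labels describe as an atfs-1 mutant, was compared with the wild-type strain N2 in worms fed the control RNAi bacteria. The comparison rests on 6 of the 24 libraries of the study, the 3 control libraries of each strain, and on all genes of the expression table. Of the 16927 genes in the table, 14561 averaged 1 CPM or more in some group of libraries and were tested. The N2 worms carried a wild-type genotype per the labels, and VC3201, the only mutant strain, is called atfs-1(vc3201) in the authors' key sheet. Both strains were hatched synchronously from bleached eggs, received RNAi bacteria from the first larval stage (L1) and were collected as whole L4 larvae or young adults after 2.5 days at 20 °C. Control worms received, per the authors' key sheet, bacteria with an empty vector, while other groups of both strains were given RNAi against cco-1, against elt-2, or against the pair at once. The labels give bacteria against cco-1 and against elt-2 as 50% of the food each, whereas the authors' key sheet gives 50% for cco-1 and 25% for elt-2, alone and in the mixture, so the dose of elt-2 RNAi is uncertain.

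ATFS-1 is a transcription factor that carries both a mitochondrial import sequence and a nuclear localization sequence. In healthy mitochondria it is imported and degraded. When import falters it collects in the nucleus and raises genes for mitochondrial chaperones, proteases and metabolism, a program called the mitochondrial unfolded protein response. Worms of this age are at the last molt or just past it, when the epidermis makes the adult cuticle, a matrix built largely of collagens, and when the germ line changes from making sperm to making oocytes.

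The values are CPM (counts scaled to a fixed library total), and every library holds nearly the same set of values, as quantile normalization leaves them, so that library totals are lost. That step is read from the values, and no label records it. In the 6 control libraries 1 CPM corresponded to 13, 14 and 14 reads in N2 and to 10, 10 and 8 reads in VC3201. Low values thus rest on fewer reads in every VC3201 control library than in any N2 control library. Differences are VC3201 minus N2 on the log2(CPM + 1) scale from 1 limma model over all 24 libraries, with p-values adjusted over all tested genes by the Benjamini-Hochberg method, and a gene was called at an adjusted p under 0.05. Nothing in the labels tells whether the replicates came from different cultures, so p-values measure only the spread between these libraries, which may be technical. In RNA from whole worms, fewer cells of a type and less RNA per cell cannot be told apart. In N2, body-shape collagens varied between the control libraries, with replicate 1 lowest and replicate 2 highest, and these genes are therefore given with all 3 values.

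Small differences were spread over much of the transcriptome on control RNAi, and large ones were few. 3895 genes were higher in VC3201 (26.7% of those tested) and 3284 were lower (22.6%), so that 49.3% were called in either direction. A change of at least 2-fold was found for 122 higher genes (0.838% of those tested) and 427 lower genes (2.93%), together 7.65% of the called genes. The median difference of all tested genes was 0.035, with quartiles of -0.185 and 0.23. The 3 N2 and 3 VC3201 libraries did not overlap at 53.4% of tested genes.

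atfs-1 itself was lower in VC3201. The gene (WBGene00013878, V:14193663-14197700, WBcel235) stood at 77.9, 70.98 and 74.6 CPM in N2 and 20.8, 22.8 and 20.3 CPM in VC3201 (difference -1.76, SE 0.06, adjusted p = 9.1e-19). All 3 VC3201 libraries lay below all 3 N2 libraries, and reads still counted to the gene in each of them. On the other RNAi the difference was -1.64 on cco-1, -1.96 on elt-2 and -1.50 on both RNAi, a difference of the same direction in libraries that share none with the control comparison.

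**Figure D1:**
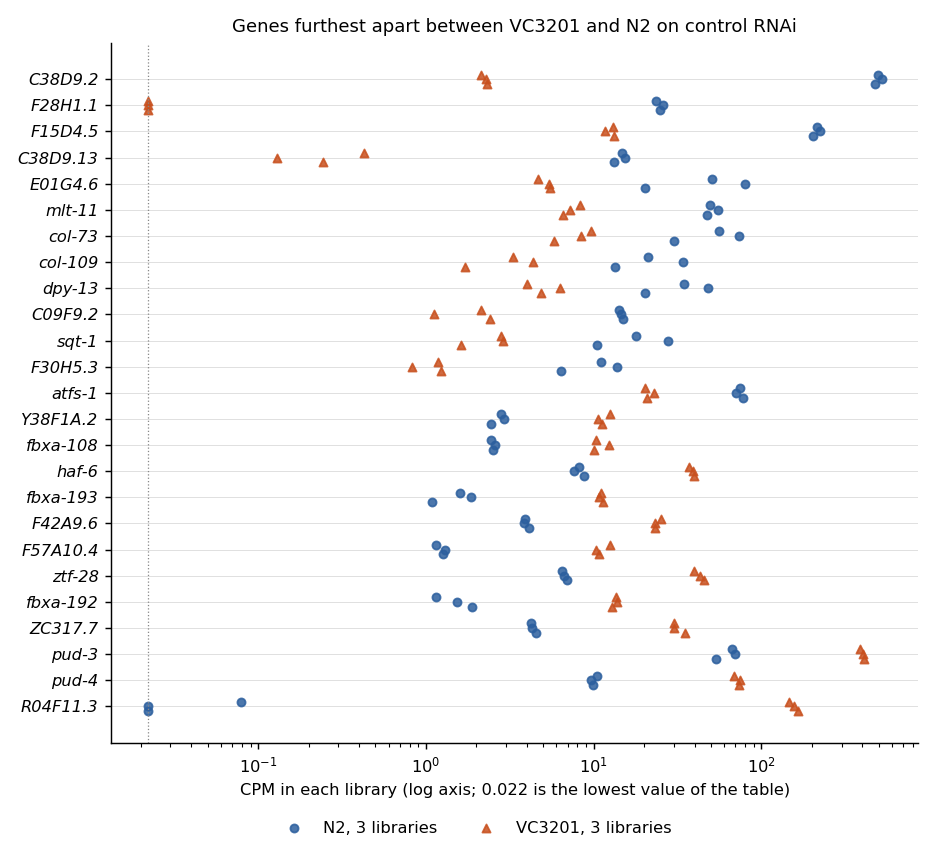
Level of atfs-1 and of the 12 genes most reduced and 12 most raised in VC3201 on control RNAi, in each of the 3 N2 (circles) and 3 VC3201 (triangles) libraries, in CPM on a log axis. The 12 genes of each direction were drawn only from genes at which the strains do not overlap, and C38D9.2 and R04F11.3 lie furthest apart.

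The widest gaps between the strains were at single genes that were nearly silent in one of them. R04F11.3 (WBGene00011016, V:12314919-12317180), a gene with no assigned name, stood at 0.022, 0.022 and 0.0789 CPM in N2 and 165, 156 and 145 CPM in VC3201. Its N2 values were at or next to the lowest value of the table, 0.022 CPM, so no fold change is given (fitted difference 7.23, SE 0.08, adjusted p = 3e-32). C38D9.2 (WBGene00008010, V:17567150-17571742) showed the opposite pattern, with 474, 521 and 497 CPM in N2 and 2.32, 2.28 and 2.12 CPM in VC3201 (difference -7.26, SE 0.07, adjusted p = 1.4e-32). F28H1.1 (I:3995725-3996402) stood at 24.9, 26.02 and 23.4 CPM in N2 and 0.022, 0.022 and 0.022 CPM in VC3201. It was listed at the lowest value of the table in every VC3201 library, on control and on each other RNAi. F15D4.5 (II:13245376-13247774) stood at 204, 223 and 214 CPM in N2 and 13.2, 11.7 and 13.1 CPM in VC3201 (difference -3.98, SE 0.07, adjusted p = 3.5e-26), and its neighbour F15D4.6 was lower as well (difference -2.32, SE 0.13, adjusted p = 1.2e-14). These 5 genes kept the direction of their strain difference on each other RNAi, while its size changed at some of them. The difference of R04F11.3 was 7.19 on cco-1, 6.69 on elt-2 and 6.44 on both RNAi, and that of C38D9.2 was -7.93 on cco-1, -7.74 on elt-2 and -7.54 on both RNAi. At R04F11.3 the change on elt-2 RNAi was -0.54 (SE 0.11, adjusted p = 7.5e-05), and at C38D9.2 the change on cco-1 RNAi was -0.67 (SE 0.10, adjusted p = 8.6e-06). F15D4.5 differed by -2.88 on cco-1, -4.40 on elt-2 and -3.98 on both RNAi, and its change on cco-1 RNAi was 1.10 (SE 0.10, adjusted p = 9.9e-10).

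Some of the widest differences were next to each other on the chromosome. The 100000 bp on either side of the start of C38D9.2 on chromosome V held 18 tested genes, of which 11 were called and changed at least 2-fold, 5 higher and 6 lower, against 0.838% and 2.93% of all tested genes. The noncoding RNA gene C38D9.13, which starts just behind C38D9.2, stood at 13.2, 15.3 and 14.7 CPM in N2 and 0.242, 0.13 and 0.43 CPM in VC3201. In the same stretch, 5 F-box genes of the fbxa family, which encode adaptors of ubiquitin ligases, were higher in VC3201. fbxa-192 stood at 1.88, 1.53 and 1.15 CPM in N2 and 12.9, 13.9 and 13.5 CPM in VC3201 (difference 2.52, SE 0.11, adjusted p = 1.5e-16). fbxa-108 stood at 2.52, 2.59 and 2.45 CPM in N2 and 10.1, 12.3 and 10.3 CPM in VC3201 (difference 1.75, SE 0.12, adjusted p = 2.6e-12), and fbxa-191 was barely detected in N2, at 0.151, 0.145 and 0.2 CPM in N2 and 3.73, 4.51 and 3.62 CPM in VC3201. The annotation gives fbxa-191 and fbxa-193 as pseudogenes, and counts of such similar copies can be split between them by the counting. The same width around atfs-1 held 29 tested genes with 2 called at least 2-fold, atfs-1 and K02E11.10, and that around F15D4.5 held 23 with 2, F15D4.5 and F15D4.6. Around R04F11.3 it held 37 tested genes with 7 called at least 2-fold, of which R04F11.3, R04F11.5, tomm-20 and F23H12.10 were higher and sqt-3, K01D12.5 and cdr-2 lower. These stretches were chosen after their values were seen.

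Next to atfs-1, differences were small. Of the 5 tested genes on each side, T16A9.5 was higher (difference 0.49, SE 0.08, adjusted p = 1.1e-05) and trm-1, named for a tRNA methyltransferase, was higher (difference 0.21, SE 0.05, adjusted p = 0.0013). K02E11.10 was the exception in size, with 1.88, 6.81 and 5.59 CPM in N2 and 0.85, 0.826 and 0.556 CPM in VC3201 (difference -1.61, SE 0.22, adjusted p = 9.8e-07). ZC376.2, ceh-74, T16A9.3 and nep-21 did not pass the threshold. ZC376.8, ZC376.6 and ent-3 were called but lost the call when single libraries were left out, with adjusted p of up to 0.106, 0.105 and 0.0821.

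Among the other genes most raised in VC3201 were 2 members of the pud family, first described as proteins raised in insulin receptor (daf-2) mutants. pud-3 stood at 53.4, 69.4 and 66.9 CPM in N2 and 407, 401 and 385 CPM in VC3201 (difference 2.64, SE 0.11, adjusted p = 2.8e-17) and pud-4 at 9.96, 9.59 and 10.5 CPM in N2 and 73.5, 74.2 and 68.8 CPM in VC3201 (difference 2.73, SE 0.12, adjusted p = 7.6e-17). ZC317.7 stood at 4.51, 4.28 and 4.21 CPM in N2 and 34.95, 30.2 and 30.3 CPM in VC3201 (difference 2.62, SE 0.08, adjusted p = 5.8e-20). The zinc finger gene ztf-28 stood at 6.896, 6.62 and 6.44 CPM in N2 and 45.5, 43.2 and 39.6 CPM in VC3201 (difference 2.51, SE 0.09, adjusted p = 1.7e-18). The most raised genes were drawn only from genes without overlap between the strains, so the lack of overlap at these 4 is no further result. haf-6, a half-size ABC transporter gene, was higher (difference 2.11, SE 0.08, adjusted p = 3.5e-18), as were F57A10.4 (difference 2.44, SE 0.11, adjusted p = 1e-16), F42A9.6 (difference 2.33, SE 0.11, adjusted p = 2.7e-16) and Y38F1A.2 (difference 1.74, SE 0.11, adjusted p = 4.7e-13). F57A10.4, F42A9.6 and haf-6 overlap another gene in the annotation, and whether counting used the strand is not given in the sources used here.

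**Figure D2:**
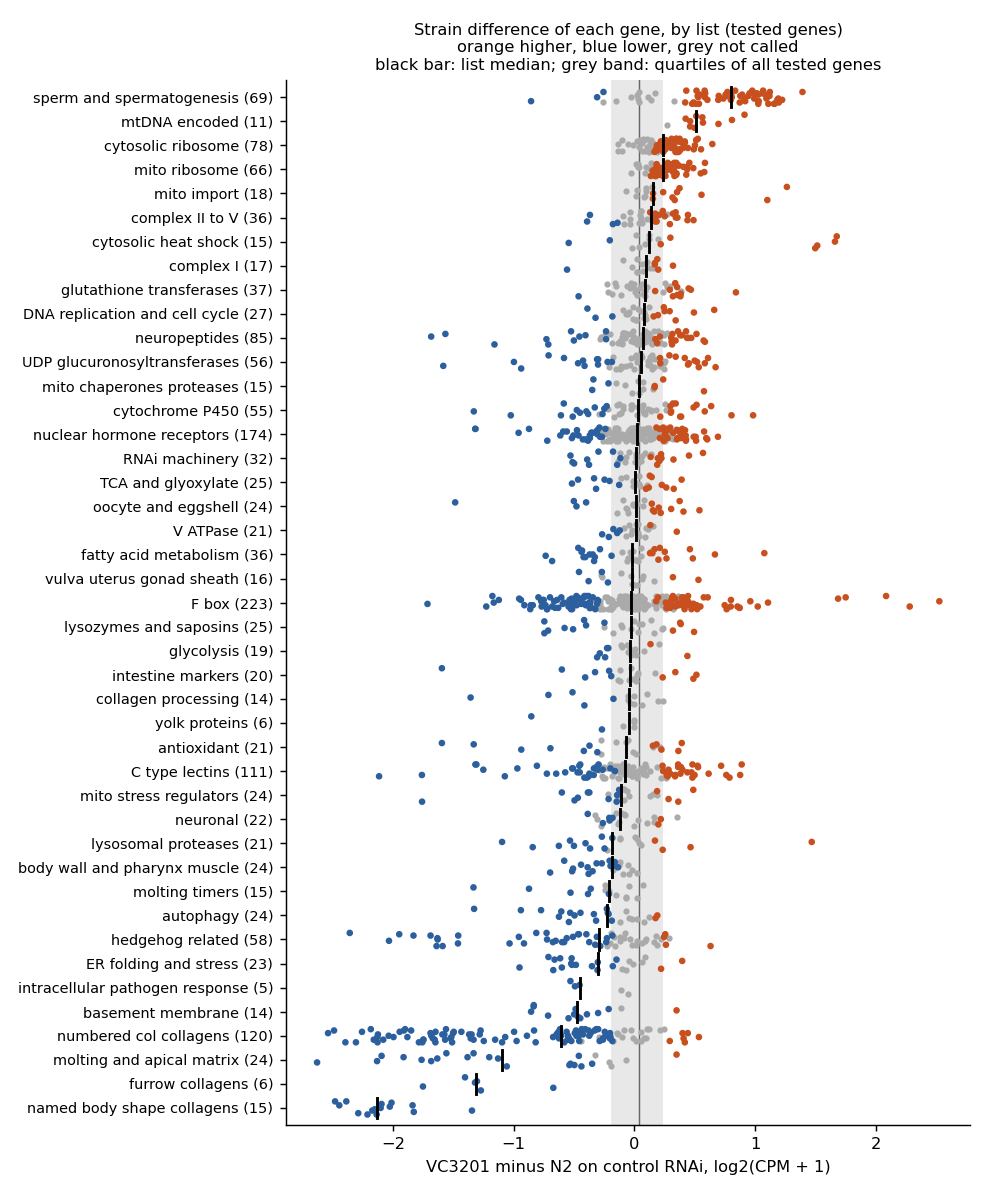
Strain difference (VC3201 minus N2 on control RNAi, log2(CPM + 1)) of every tested gene in 43 gene lists, ordered by list median, with the number of tested genes in brackets. The body-shape, furrow and numbered collagen lists and the list for molting and apical matrix lie lowest, with medians from -0.61 to -2.13. The lists of collagen processing and molting timers have medians of -0.04 and -0.21. The sperm list lies highest, with a median of 0.80. The band marks the quartiles of all tested genes, -0.185 to 0.23.

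Cuticle genes made up the clearest group of reduced genes. All 15 tested collagen genes named for the body shape of their mutants were lower in VC3201, with a median difference of -2.13, against 22.6% lower and a median of 0.035 among all tested genes. All 6 tested collagens of the annular furrows were lower, with a median of -1.31. Of 120 tested collagens with a col number, 96 were lower and 6 higher, with a median of -0.61. The summed level of the body-shape collagens was 270.2, 552 and 411 CPM in N2 and 79.04, 92.7 and 84.1 CPM in VC3201. The N2 libraries thus spread widely, and all of them lay above the VC3201 libraries.

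sqt-3, a cuticle collagen needed for body length, stood at 54.2, 96.3 and 72.6 CPM in N2 and 13.6, 13.9 and 11.7 CPM in VC3201 (difference -2.39, SE 0.14, adjusted p = 3.4e-14). dpy-13 stood at 20.2, 48.1 and 34.7 CPM in N2 and 4.82, 6.31 and 4.02 CPM in VC3201 (difference -2.48, SE 0.18, adjusted p = 3.9e-12), and sqt-1 at 10.4, 27.7 and 17.97 CPM in N2 and 1.62, 2.87 and 2.798 CPM in VC3201 (difference -2.44, SE 0.20, adjusted p = 5.4e-11). In each of these 3 genes N2 replicate 1 was the lowest N2 library. The most reduced genes were drawn only from genes without overlap, and list members by smallest p. The lack of overlap between the strains at these 3 is therefore no further result. The furrow collagens were steadier in N2. dpy-10 stood at 18.3, 17.4 and 16.3 CPM in N2 and 7.495, 6.17 and 6.16 CPM in VC3201 (difference -1.27, SE 0.08, adjusted p = 3e-13) and dpy-7 at 5.72, 6.51 and 5.93 CPM in N2 and 1.98, 1.49 and 1.55 CPM in VC3201 (difference -1.40, SE 0.16, adjusted p = 3.5e-08). Among the numbered collagens, col-73 stood at 30.1, 73.2 and 56.2 CPM in N2 and 5.77, 8.38 and 9.62 CPM in VC3201 (difference -2.54, SE 0.19, adjusted p = 6e-12), and col-109 at 13.4, 34.05 and 21 CPM in N2 and 1.71, 4.37 and 3.31 CPM in VC3201 (difference -2.49, SE 0.20, adjusted p = 7.2e-11). Without any single library, all 15 body-shape and all 6 furrow collagens remained lower, with list medians from -2.51 to -1.85 and from -1.36 to -1.28. The family holds similar copies, so that single numbered collagens are less certain than the list.

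Genes of the molting cycle were lower together with the collagens. Of 24 tested genes for molting and the apical matrix of the epidermis, 19 were lower (79.2%) and 1 higher (4.17%), with a median of -1.09. Among all tested genes 22.6% were lower and 26.7% higher. mlt-11, a secreted protease inhibitor needed for molting, stood at 47.6, 55.1 and 49.3 CPM in N2 and 6.57, 7.25 and 8.28 CPM in VC3201 (difference -2.63, SE 0.16, adjusted p = 1.4e-13). noah-1, a zona pellucida domain protein of the matrix under which a new cuticle forms, stood at 48.9, 49.8 and 44.7 CPM in N2 and 10.7, 10.9 and 9.75 CPM in VC3201 (difference -2.09, SE 0.09, adjusted p = 1.3e-16). Its partner noah-2 was lower too (difference -1.68, SE 0.09, adjusted p = 1e-14), as was sym-1, a secreted leucine-rich repeat protein (difference -1.91, SE 0.08, adjusted p = 8.1e-17). The N2 libraries lay close together at these genes, unlike at the body-shape collagens. E01G4.6, a gene with no assigned name, stood at 20.2, 80.2 and 50.8 CPM in N2 and 5.45, 5.43 and 4.66 CPM in VC3201 (difference -2.86, SE 0.29, adjusted p = 4.9e-09), with the same order of the N2 libraries as the collagens.

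Regulators that time the molts moved less. Of 15 tested, 6 were lower (40.0%, against 22.6% of all tested genes) and none higher, with a median of -0.21. lin-42, the worm's homolog of the clock gene period, stood at 37.1, 44.3 and 41.9 CPM in N2 and 15.8, 13.9 and 17.4 CPM in VC3201 (difference -1.33, SE 0.12, adjusted p = 6.7e-10). The nuclear receptor gene nhr-25 stood at 14.4, 12.6 and 13.3 CPM in N2 and 6.64, 7.18 and 6.77 CPM in VC3201 (difference -0.87, SE 0.11, adjusted p = 3.4e-07), and myrf-1, a membrane-bound transcription factor, was lower (difference -0.53, SE 0.09, adjusted p = 2.1e-05). Hedgehog-related genes, which in C. elegans are secreted mainly by the epidermis, and their patched-related receptors had 33 lower and 4 higher of 58 tested, or 2 higher without N2 replicate 1 or VC3201 replicate 3, with a median of -0.30. grl-16, of the groundhog-like family, stood at 45.1, 66.6 and 55.6 CPM in N2 and 7.63, 11.3 and 11.4 CPM in VC3201 (difference -2.36, SE 0.13, adjusted p = 2.1e-14). wrt-10, of the warthog family, was lower (difference -1.95, SE 0.10, adjusted p = 5.8e-15), and so was the receptor-like gene ptr-4 (difference -1.64, SE 0.14, adjusted p = 2.8e-10).

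Enzymes that prepare collagens were divided. Of 14 tested, 5 were lower (35.7%, against 22.6% of all tested genes), none was higher, and the median was -0.04. dpy-18, the catalytic subunit of a prolyl 4-hydroxylase, stood at 98.2, 102 and 105 CPM in N2 and 36.9, 40.2 and 40.3 CPM in VC3201 (difference -1.36, SE 0.07, adjusted p = 3.4e-15). pdi-2, the disulfide isomerase that forms its other subunit, was lower (difference -0.71, SE 0.05, adjusted p = 1e-11), and so was dpy-11, a thioredoxin-like protein (difference -0.51, SE 0.05, adjusted p = 7.7e-10). Of 14 tested genes for the basement membrane, a different collagen-containing matrix, 12 were lower and 1 higher, with a median of -0.48. The laminin alpha gene epi-1 stood at 137, 152 and 136 CPM in N2 and 75.8, 80.9 and 79.5 CPM in VC3201 (difference -0.83, SE 0.06, adjusted p = 5.4e-12). The beta and gamma subunit genes lam-1 (difference -0.72, SE 0.06, adjusted p = 2.8e-11) and lam-2 (difference -0.84, SE 0.07, adjusted p = 5.7e-11) and the other alpha gene lam-3 (difference -0.86, SE 0.08, adjusted p = 2.8e-09) differed by a similar amount. For each of these 4 genes, every VC3201 library lay below every N2 library. They were picked by smallest p, and 53.4% of all tested genes did not overlap, so this is no further result.

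Folding factors of the endoplasmic reticulum, through which secreted proteins pass, were lower as well. Of 23 tested, 15 were lower (65.2%, against 22.6% of all tested genes) and 2 higher, with a median of -0.31. dnj-27, an oxidoreductase with a J domain, stood at 36.9, 38.6 and 40.1 CPM in N2 and 18.3, 19.8 and 20.2 CPM in VC3201 (difference -0.95, SE 0.07, adjusted p = 4.7e-12). hsp-3, one of the genes for the Hsp70 chaperone BiP, stood at 983, 983 and 907 CPM in N2 and 595, 647 and 574 CPM in VC3201 (difference -0.66, SE 0.06, adjusted p = 1.3e-10). The other BiP gene, hsp-4, which is the usual reporter of stress in the endoplasmic reticulum, stood at 543, 576 and 554 CPM in N2 and 392, 392 and 384 CPM in VC3201 (difference -0.52, SE 0.05, adjusted p = 1.5e-09); it was named after its values were seen. Both BiP genes were thus below N2 in every VC3201 library, while 53.4% of all tested genes did not overlap between the strains.

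Muscle genes were slightly lower, by an amount that depended on single libraries. Of 24 tested markers of body wall and pharynx muscle, 15 were lower (62.5%, against 22.6% of all tested genes) and none higher, with a median of -0.19. Without N2 replicate 2 the count fell to 9, and it was 10 to 17 without any other library. unc-22, which encodes the giant kinase twitchin, stood at 155, 179 and 153 CPM in N2 and 99.99, 97.5 and 101 CPM in VC3201 (difference -0.70, SE 0.09, adjusted p = 2.4e-07). unc-15, the gene for paramyosin, was lower by less (difference -0.39, SE 0.06, adjusted p = 2.2e-06), and so was the troponin T gene tnt-3 (difference -0.52, SE 0.06, adjusted p = 3.2e-08).

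Mitochondrial genes did not move as 1 group. Among 15 tested genes listed as mitochondrial chaperones and proteases, 4 were higher (26.7%) and 3 lower (20.0%), with a median of 0.04. These shares were near the 26.7% and 22.6% of all tested genes. hsp-6, the mitochondrial Hsp70 whose promoter is the standard reporter of the mitochondrial unfolded protein response, stood at 609.9, 587 and 593 CPM in N2 and 468, 475 and 459.8 CPM in VC3201 (difference -0.35, SE 0.05, adjusted p = 6.3e-06). hsp-60, the matrix chaperonin, stood at 234, 229 and 215 CPM in N2 and 228, 238 and 225 CPM in VC3201 (difference 0.03, SE 0.07, adjusted p = 0.77), and the groups overlapped. The inner-membrane proteases ymel-1 (difference -0.34, SE 0.06, adjusted p = 2.1e-05) and spg-7 (difference -0.22, SE 0.06, adjusted p = 0.0033) were lower. The higher ones were immp-1, an inner-membrane peptidase (difference 0.58, SE 0.14, adjusted p = 0.00094), phb-2, a prohibitin (difference 0.17, SE 0.05, adjusted p = 0.0035), hsp-75 (difference 0.17, SE 0.05, adjusted p = 0.0068) and cpn-1 (difference 0.24, SE 0.06, adjusted p = 0.0027), a calponin that was listed here but is not a mitochondrial chaperone. dnj-10, clpp-1, phb-1, ppgn-1 and stl-1 did not pass the threshold, with differences from -0.07 to 0.15.

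Among import genes, more were higher than lower. Of 25 listed, 18 were matched by symbol and tested, without timm-8, timm-9, timm-10, timm-13, timm-44, timm-50 and tin-9.2. Of these 18, 10 were higher (55.6%, against 26.7% of all tested genes) and none was lower, with a median of 0.15. tomm-20, a receptor of the outer membrane translocase, stood at 31.4, 28.8 and 37.3 CPM in N2 and 77.6, 77.9 and 81.2 CPM in VC3201 (difference 1.26, SE 0.08, adjusted p = 1.9e-13). The N2 libraries lay between 28.8 and 37.3 CPM and the VC3201 libraries between 77.6 and 81.2. D2096.1 stood at 2.13, 3.34 and 3.69 CPM in N2 and 7.36, 7.39 and 7.96 CPM in VC3201 (difference 1.10, SE 0.13, adjusted p = 4.6e-08). Both subunits of the processing peptidase that removes import sequences, mppa-1 (difference 0.31, SE 0.06, adjusted p = 5.9e-05) and mppb-1 (difference 0.37, SE 0.07, adjusted p = 0.00016), were higher by less. tomm-40, the pore of the translocase, differed by 0.08 (adjusted p = 0.22) and timm-23, the inner membrane channel, by 0.02 (adjusted p = 0.84). mtx-1 and mtx-2 were among the 10 higher genes, but lost the call when single libraries were left out.

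Among genes that control the mitochondrial stress response, more were lower than higher. Of 24 tested, atfs-1 among them, 10 were lower (41.7%, against 22.6% of all tested genes) and 4 higher (16.7%, against 26.7%), with a median of -0.11. cbp-1, an acetyltransferase, stood at 255, 257 and 243 CPM in N2 and 181, 183 and 181 CPM in VC3201 (difference -0.47, SE 0.06, adjusted p = 6.7e-08). jmjd-3.1, a histone demethylase that acts in the response, stood at 11.8, 11.6 and 10.8 CPM in N2 and 6.18, 7.39 and 8.06 CPM in VC3201 (difference -0.60, SE 0.08, adjusted p = 7.3e-07), and ulp-4, a SUMO protease that acts on ATFS-1, was lower (difference -0.39, SE 0.06, adjusted p = 3.4e-06). hlh-30, a transcription factor of autophagy and lysosomes, was lower (difference -0.50, SE 0.08, adjusted p = 2.1e-05). haf-1, an ABC transporter of the inner membrane that acts upstream of ATFS-1, was higher (difference 0.49, SE 0.08, adjusted p = 2.1e-05), and so was ubl-5, a ubiquitin-like protein of the pathway (difference 0.36, SE 0.11, adjusted p = 0.0059). dve-1, a homeodomain protein of the same pathway, differed by -0.22 (adjusted p = 0.099) and was called, at adjusted p of 0.0271 and 0.0188, without N2 replicate 2 and without VC3201 replicate 3. The calls of gcn-2, hmg-5 and rsks-1 were each lost without some single library.

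Respiratory chain genes of the nucleus moved little, those of the mitochondrial genome more. Of 17 tested complex I genes, 5 were higher (29.4%) and 1 lower (5.88%), against 26.7% and 22.6% of all tested genes. The median was 0.10, and 8 were higher without N2 replicate 3. Of 36 tested genes of complexes II to V, 16 were higher (44.4%) and 4 lower (11.1%), with a median of 0.14. Without N2 replicate 1 only 10 were higher, and without N2 replicate 2 only 2 were lower. Paralogs of the same subunit moved in opposite directions. gas-1, the only lower gene of complex I, stood at 131, 138 and 134 CPM in N2 and 92.7, 93.8 and 86.7 CPM in VC3201 (difference -0.56, SE 0.05, adjusted p = 2.2e-09). nduf-2.2, which encodes the same subunit, stood at 88.1, 94.1 and 89.5 CPM in N2 and 111, 110.1 and 119 CPM in VC3201 (difference 0.32, SE 0.06, adjusted p = 4.7e-05). For the flavoprotein subunit of complex II, sdha-1 was lower (difference -0.39, SE 0.06, adjusted p = 2e-06) and sdha-2 higher (difference 0.34, SE 0.05, adjusted p = 6.1e-06). For subunit b of the ATP synthase, asb-1, the germline copy, was higher (difference 0.36, SE 0.05, adjusted p = 2.1e-06) and asb-2, named after its values were seen, was lower (difference -0.14, SE 0.05, adjusted p = 0.029). Similar copies can share reads, and gas-1 overlaps another gene.

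Of 11 tested protein genes of the mitochondrial genome, 10 were higher (90.9%) and none was lower, with a median of 0.51. Among all tested genes 26.7% were higher and 22.6% lower. Their summed level was 1458, 1404 and 1284 CPM in N2 and 1961, 2116 and 2329 CPM in VC3201. ctc-2, a core subunit of cytochrome c oxidase, stood at 86.5, 97.2 and 82.4 CPM in N2 and 158, 168 and 176 CPM in VC3201 (difference 0.91, SE 0.10, adjusted p = 3.5e-08). ctc-3 (difference 0.81, SE 0.12, adjusted p = 2e-06) and ctc-1 (difference 0.70, SE 0.12, adjusted p = 3.2e-05), the other core subunits, were higher too. These transcripts were measured after polyA enrichment, so their levels also depend on how they were captured, which was not tested.

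Ribosomal protein genes were higher by small amounts. Among all tested genes 26.7% were higher and 22.6% lower, with a median of 0.035. Of 66 tested genes of the mitochondrial ribosome, 49 were higher (74.2%) and none lower, with a median of 0.23. Of 78 tested genes of the cytosolic ribosome, 54 were higher (69.2%) and none lower, with a median of 0.24. The summed level of the mitochondrial list was 2126, 2142 and 2205 CPM in N2 and 2544, 2564 and 2526 CPM in VC3201. mrpl-9 stood at 56.9, 56.3 and 56.8 CPM in N2 and 83.6, 83.9 and 82.7 CPM in VC3201 (difference 0.55, SE 0.05, adjusted p = 6.5e-10), and mrpl-54 at 12.3, 12.5 and 13.4 CPM in N2 and 19.1, 19.5 and 20.2 CPM in VC3201 (difference 0.58, SE 0.08, adjusted p = 5.4e-07). In the cytosolic list the largest difference was at rpl-28 (difference 0.64, SE 0.09, adjusted p = 1.5e-06), where the N2 libraries ranged from 375 to 487 CPM and the VC3201 libraries from 642 to 684. With 1 library left out, 40 to 45 mitochondrial and 45 to 56 cytosolic genes were higher, and at most 1, a cytosolic one, was lower.

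**Figure D3:**
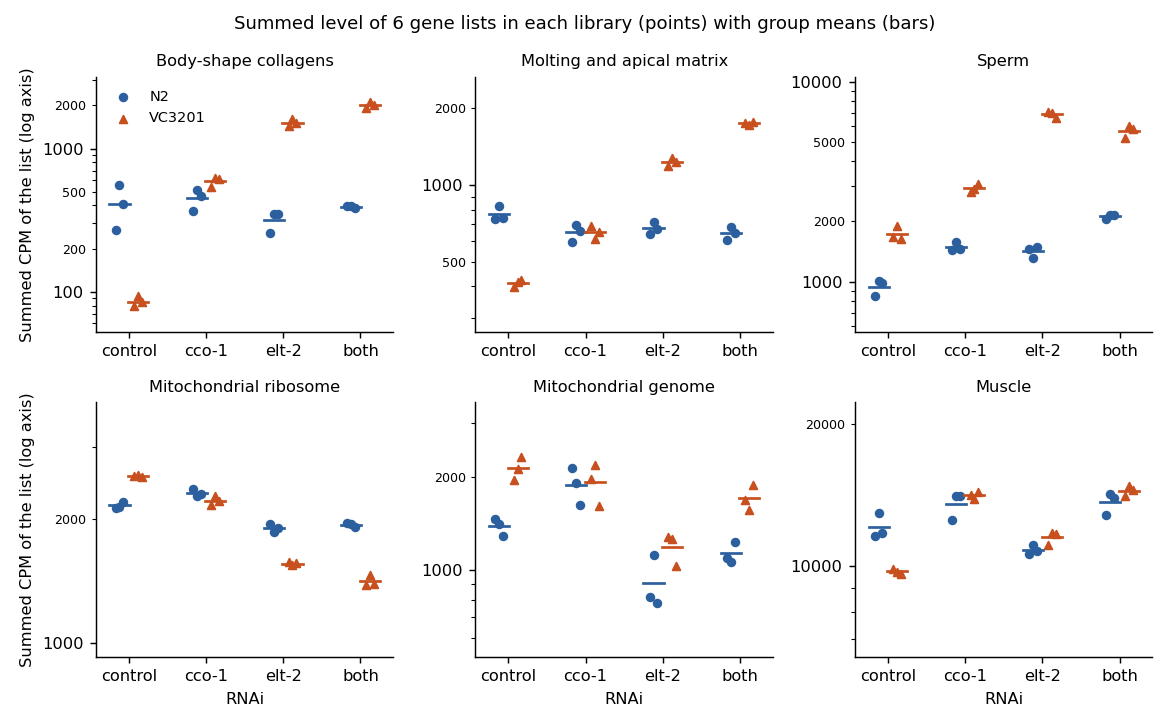
Summed CPM of 6 gene lists in each of the 24 libraries (points, log axes) with group means (bars), for N2 (circles) and VC3201 (triangles) on control, cco-1, elt-2 and both RNAi. The body-shape collagens of VC3201 lie below N2 on control RNAi, between 79.0 and 92.7 CPM, and above N2 on elt-2 RNAi, between 1426 and 1614 CPM.

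Small heat shock genes of the hsp-16 family were higher. Of 15 tested genes of the list, 6 were higher (40.0%) and 2 lower (13.3%), against 26.7% and 22.6% of all tested genes. The list median was 0.12. hsp-16.48 stood at 5.78, 5.22 and 6.25 CPM in N2 and 18.8, 21.4 and 20.8 CPM in VC3201 (difference 1.66, SE 0.14, adjusted p = 1.6e-10). hsp-16.41 (difference 1.67, SE 0.14, adjusted p = 5.9e-11) and hsp-16.2 (difference 1.51, SE 0.13, adjusted p = 2.8e-10) were higher as well. The hsp-16 genes are similar copies that can share reads. hsp-43, another small heat shock gene, was lower, at 99.6, 107 and 113 CPM in N2 and 72.2, 72.5 and 73 CPM in VC3201 (difference -0.54, SE 0.05, adjusted p = 3.7e-09).

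The lists of central metabolism held genes called in both directions, as did all tested genes, of which 26.7% were higher and 22.6% lower. Of 19 tested glycolysis genes, 5 were lower and 2 higher, or 1 higher without N2 replicate 1, N2 replicate 2, VC3201 replicate 1 or VC3201 replicate 2, with a median of -0.03. The hexokinase gene hxk-1 was higher (difference 0.44, SE 0.05, adjusted p = 2.6e-08), and the enolase gene enol-1 lower (difference -0.29, SE 0.05, adjusted p = 9.9e-06). Of 25 tested genes of the citric acid and glyoxylate cycles, 8 were higher, or 5 without VC3201 replicate 1, and 7 lower, with a median of 0.01. aco-2, the mitochondrial aconitase, stood at 619.7, 624 and 597 CPM in N2 and 451, 432 and 448 CPM in VC3201 (difference -0.47, SE 0.04, adjusted p = 1.3e-09). suca-1, of succinyl-CoA ligase, was lower (difference -0.52, SE 0.05, adjusted p = 3.9e-09) and idhg-1, of isocitrate dehydrogenase, higher (difference 0.39, SE 0.05, adjusted p = 9.5e-08). Of 36 tested genes of fatty acid metabolism, 13 were lower and 11 higher. In percent, 26.3% of the glycolysis, 28.0% of the cycle and 36.1% of the fatty acid genes were lower, and 10.5, 32.0 and 30.6% higher. acdh-1, an acyl-CoA dehydrogenase whose promoter is a sensor of diet, stood at 677, 706 and 689.6 CPM in N2 and 414, 445 and 432 CPM in VC3201 (difference -0.68, SE 0.07, adjusted p = 9.4e-09). The lipid-binding protein genes lbp-1 (difference -0.74, SE 0.07, adjusted p = 1.1e-09) and lbp-7 (difference 1.08, SE 0.11, adjusted p = 2.9e-09) moved in opposite directions.

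Detoxification families held single genes that moved far. Of the glutathione transferases 29.7% were higher and 2.7% lower, against 26.7% and 22.6% of all tested genes, and this difference from all genes was not tested. Of 37 tested glutathione transferases, 11 were higher, or 7 without N2 replicate 1, and 1 was lower, or 3 without N2 replicate 2 and 2 without VC3201 replicate 1, with a median of 0.09. gst-24 stood at 11.7, 14.1 and 14.1 CPM in N2 and 25.6, 25.5 and 22.7 CPM in VC3201 (difference 0.84, SE 0.11, adjusted p = 3.7e-07). Of 56 tested UDP-glucuronosyltransferases, 13 were higher and 13 lower (23.2% each, near the shares of all tested genes), or 8 lower without N2 replicate 1. ugt-62 stood at 69.05, 71.7 and 71.6 CPM in N2 and 22.9, 22.9 and 23.1 CPM in VC3201 (difference -1.58, SE 0.06, adjusted p = 5.8e-19), with little spread within either strain. Of 55 tested cytochrome P450 genes, 14 were higher, or 9 without VC3201 replicate 1, and 13 lower. cyp-33C8 stood at 12.2, 12.5 and 14.7 CPM in N2 and 4.66, 3.96 and 5.27 CPM in VC3201 (difference -1.33, SE 0.08, adjusted p = 8.1e-14). Of 21 tested antioxidant and metal-response genes, 7 were lower and 5 higher, or 3 higher without N2 replicate 1, N2 replicate 2 or VC3201 replicate 1. cdr-2, of a family induced by cadmium, stood at 12.9, 13.1 and 14.4 CPM in N2 and 4.61, 4.94 and 4.74 CPM in VC3201 (difference -1.33, SE 0.08, adjusted p = 2.6e-13). mtl-1, a metallothionein gene of the intestine, was near its detection limit in VC3201, at 1.97, 3.22 and 1.93 CPM in N2 and 0.132, 0.022 and 0.152 CPM in VC3201 (difference -1.59, SE 0.15, adjusted p = 1.3e-09).

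Defence genes were called in both directions. Of 111 tested C-type lectin genes, 30 were lower (27.0%) and 28 higher (25.2%), near the 22.6% and 26.7% of all tested genes, with a median of -0.08. clec-78 stood at 10.02, 11.6 and 10.4 CPM in N2 and 1.53, 1.87 and 1.68 CPM in VC3201 (difference -2.11, SE 0.13, adjusted p = 1.9e-13), and clec-266 at 64.4, 57.9 and 60.98 CPM in N2 and 17.3, 16.07 and 18.6 CPM in VC3201 (difference -1.76, SE 0.10, adjusted p = 1.2e-14). Both overlap another gene. Of 25 tested lysozyme and saposin-like genes, 8 were lower and 4 higher. lys-1 stood at 288, 307 and 284 CPM in N2 and 211, 202 and 205 CPM in VC3201 (difference -0.51, SE 0.06, adjusted p = 2.7e-08), and lys-7 at 89.7, 120.1 and 105 CPM in N2 and 58.6, 62.2 and 64.4 CPM in VC3201 (difference -0.75, SE 0.10, adjusted p = 1.2e-06). Among 5 tested genes of the response to intracellular pathogens, 3 were lower and none was higher. Only skr-4, a Skp1-like ubiquitin ligase component, kept its call under every alternative run (difference -0.53, SE 0.07, adjusted p = 1e-06). Of 223 tested F-box genes, 62 were lower (27.8%) and 50 higher (22.4%), with a median of -0.03. For the 176 F-box genes with reads ranked back from their low values, 45 were lower and 17 higher on reads, with a median of -0.23, and 39 lower and 20 higher on CPM from the same 6 libraries, with a median of -0.05. Of 174 tested nuclear hormone receptors 27 were lower (15.5%) and 33 higher (19.0%), or 19 higher without N2 replicate 2. nhr-47 stood at 23.04, 23.6 and 24.2 CPM in N2 and 9.64, 8.85 and 8.18 CPM in VC3201 (difference -1.32, SE 0.08, adjusted p = 8.2e-14).

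Many genes of autophagy were lower. Of 24 tested, 15 were lower and 2 higher, with a median of -0.22, against 22.6% lower among all tested genes, and none was higher without VC3201 replicate 1 or VC3201 replicate 2 and 1 without N2 replicate 2, N2 replicate 3 or VC3201 replicate 3. epg-2, an adaptor for the removal of P granule proteins, stood at 56.3, 60.9 and 59.9 CPM in N2 and 22.3, 23.2 and 23.3 CPM in VC3201 (difference -1.33, SE 0.07, adjusted p = 1.3e-14). epg-5, a tether that acts in autophagosome maturation, stood at 37.8, 34.6 and 31.2 CPM in N2 and 17.5, 17.7 and 17.1 CPM in VC3201 (difference -0.94, SE 0.07, adjusted p = 3.3e-11). Both genes overlap another one. sqst-1, the homolog of the receptor p62, was lower (difference -0.63, SE 0.06, adjusted p = 6.4e-10), and so was atg-2, a lipid transfer protein (difference -0.77, SE 0.08, adjusted p = 6.8e-09). Of 21 tested lysosomal proteases, 10 were lower and 4 higher. The cathepsin B-like genes cpr-4, at 212, 234 and 223 CPM in N2 and 122, 91.7 and 98.95 CPM in VC3201 (difference -1.10, SE 0.08, adjusted p = 3.5e-12), and cpr-5 (difference -0.84, SE 0.08, adjusted p = 7e-10) were lower, as was the cathepsin L gene cpl-1 (difference -0.53, SE 0.05, adjusted p = 1.6e-10). asp-14, an aspartyl protease gene, rose to the largest extent in the list, with 75.04, 78.01 and 78.6 CPM in N2 and 201, 208 and 239 CPM in VC3201 (difference 1.47, SE 0.10, adjusted p = 2.9e-12). The V-ATPase, the proton pump of lysosomes, had 5 lower and 2 higher of 21 tested genes, with 3 lower without VC3201 replicate 1 and 1 higher without N2 replicate 1.

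Sperm genes were higher in VC3201. Of 69 tested, 55 were higher (79.7%, against 26.7% of all tested genes) and 3 lower, with a median of 0.80. Their summed level was 846, 1003 and 983 CPM in N2 and 1668, 1900.0 and 1640.2 CPM in VC3201, without overlap. Of 31 genes for major sperm proteins, the cytoskeletal proteins that move the sperm, 28 were higher and none lower, with a median of 1.01. All 20 tested genes of the smaller families on the list (msd, sss, ssp, ssq and gsp) were higher, with a median of 0.78. The spe genes, which act in making or activating sperm, had 7 higher and 3 lower of 18 tested, with a median of 0.16. Their summed level was 202, 207 and 207 CPM in N2 and 219, 223 and 211 CPM in VC3201. This split of the list was made after its values were seen, and the difference between its parts was not tested. msp-81 stood at 42.3, 52.9 and 54.9 CPM in N2 and 112, 129 and 112 CPM in VC3201 (difference 1.22, SE 0.08, adjusted p = 1.1e-12). msp-65 stood at 17.8, 19.95 and 18.02 CPM in N2 and 47.7, 54.6 and 48.8 CPM in VC3201 (difference 1.39, SE 0.10, adjusted p = 5.9e-12). Major sperm protein genes are near-identical, so reads may be divided among them.

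Other tissues gave smaller and mixed differences, to be read beside the 26.7% higher and 22.6% lower of all tested genes. Of 24 tested oocyte and eggshell genes, 9 were higher (37.5%) and 4 lower (16.7%), with a median of 0.01. cpg-2, an eggshell proteoglycan gene, was higher (difference 0.54, SE 0.06, adjusted p = 9.6e-08), and perm-2, of the inner eggshell layer, lower (difference -0.50, SE 0.07, adjusted p = 2.7e-06). Of 27 tested genes of DNA replication and the cell cycle, 8 were higher (29.6%) and 3 lower (11.1%). The cyclin B gene cyb-2.1 stood at 135, 137 and 133 CPM in N2 and 216, 211 and 215 CPM in VC3201 (difference 0.66, SE 0.04, adjusted p = 3.1e-13). Of 6 tested yolk protein genes, vit-4 was lower, at 5261, 5261 and 4989.9 CPM in N2 and 2665, 2834 and 3094 CPM in VC3201 (difference -0.85, SE 0.09, adjusted p = 5e-09). vit-1 was called as well (difference -0.27, SE 0.10, adjusted p = 0.032), but lost the call without any 1 of the 6 control libraries. vit-2 and vit-6 held the top ranks in every control library, where their values are nearly the same in every library. Of 20 tested intestine markers, 6 were lower and 4 higher, or 2 higher without VC3201 replicate 3, with a median of -0.04. Of 22 tested neuronal genes, 5 were lower (22.7%), or 3 without VC3201 replicate 2. In the same list 2 were higher (9.09%), or none without VC3201 replicate 1 and 1 without any other library. unc-18, a syntaxin-binding protein of neurotransmitter release, was lower (difference -0.39, SE 0.05, adjusted p = 2.8e-07). Of 85 tested neuropeptide and insulin-like genes, 18 were higher (21.2%) and 11 lower (12.9%). Of 16 tested markers of vulva, uterus and gonad sheath, 4 were lower and 2 higher, with 2 lower without N2 replicate 1 or N2 replicate 2 and 1 higher without N2 replicate 2, VC3201 replicate 2 or VC3201 replicate 3.

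Since all worms were fed RNAi bacteria, the genes of RNA interference were listed too. Of 32 tested, 9 were higher and 9 lower, with a median of 0.02. The share of 28.1% each was near the 26.7% higher and 22.6% lower of all tested genes. sid-1, the importer of double-stranded RNA, stood at 44.6, 40.7 and 41.3 CPM in N2 and 62.9, 66.03 and 60.1 CPM in VC3201 (difference 0.57, SE 0.07, adjusted p = 1.1e-07). The Argonaute genes alg-2 (difference -0.53, SE 0.06, adjusted p = 7e-09) and nrde-3 (difference -0.51, SE 0.06, adjusted p = 7.4e-08) were lower. The gene targets of the other treatments did not stand far apart on control RNAi. cco-1 stood at 267, 276 and 333 CPM in N2 and 354, 349.7 and 333 CPM in VC3201 (difference 0.25, SE 0.08, adjusted p = 0.0084), and elt-2 at 19.2, 16.8 and 15.96 CPM in N2 and 16.6, 17.7 and 16.54 CPM in VC3201 (difference -0.03, SE 0.21, adjusted p = 0.92).

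**Figure D4:**
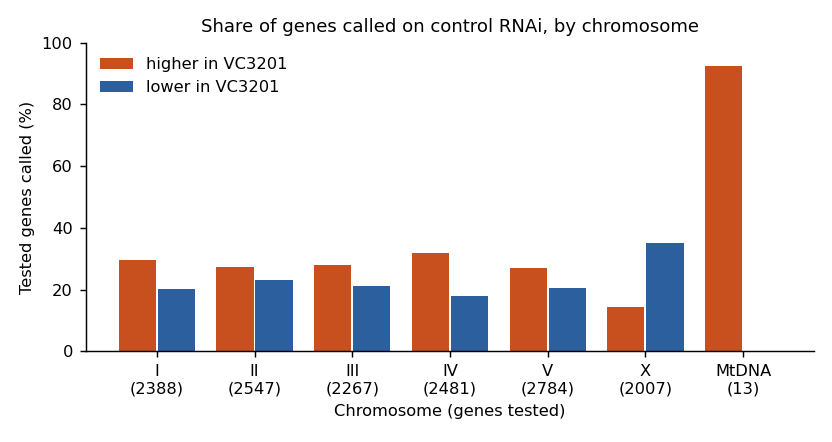
Share of tested genes called higher (orange) or lower (blue) in VC3201 on control RNAi, in percent, for each chromosome, with the number tested in brackets. On the X chromosome 35.0% were lower and 14.5% higher, whereas on each autosome more genes were higher than lower, an order that does not hold for genes called at least 2-fold.

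Without a fold minimum, the X chromosome held more lower than higher genes, and each autosome more higher than lower ones. Among genes called at least 2-fold, lower ones outnumbered higher ones on X, with 78 and 11, and on each autosome, with 45 to 90 lower and 8 to 37 higher. Of 2007 tested X-linked genes, 703 were lower (35.0%) and 292 higher (14.5%), with a median of -0.09. On the 5 autosomes, 17.8 to 23.1% of tested genes were lower and 27.0 to 32.0% higher, with medians from 0.04 to 0.08. The X-linked genes dpy-7, sym-1, pdi-2, gas-1 and sdha-1, described above, were among the lower ones. Of 13 tested genes of the mitochondrial genome, 12 were higher and none was lower. These shares are a description, and the difference between chromosomes was not tested.

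The strain difference on control RNAi carried over only in part to worms on the other RNAi, which share no library with the control comparison. Of the 3895 genes higher on control, 44.1% were also higher on cco-1 RNAi and 9.01% were lower there, against 26.6% and 29.2% of all tested genes. On elt-2 RNAi 32.9% of the same genes were higher and 45.3% lower, against 33.1% and 44.8% of all tested genes, so the shares matched the background. Of the 3284 genes lower on control, 56.4% were lower on cco-1 RNAi and 16.4% higher, and 49.4% were lower on elt-2 RNAi and 34.8% higher. Of the 427 genes lower by at least 2-fold, 61.8% were lower on cco-1 RNAi and 43.1% on elt-2 RNAi, where 51.1% were higher. Of the 122 genes higher by at least 2-fold, 94.3% and 68.9% were higher on these RNAi. On both RNAi mixed, where 36.2% of all tested genes were higher and 44.2% lower (80.4% together), 63.9% of the 122 were higher and 53.4% of the 427 were higher too. In all, 917 genes were higher and 1151 lower on each of the 4 RNAi, and 32 and 88 of these by at least 2-fold on each.

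Collagens were among the genes that changed sides. On elt-2 RNAi 13 of the 15 body-shape collagens were higher in VC3201 and 2 lower, with a median of 2.33, against 33.1% higher among all tested genes. Their sum was 257, 352 and 349 CPM in N2 and 1426, 1614 and 1514 CPM in VC3201 there. For N2 the sums on elt-2 and control RNAi overlapped, whereas every VC3201 sum on elt-2 RNAi lay far above those on control RNAi. sqt-1 stood at 13.3, 17.2 and 18.4 CPM in N2 and 88.95, 101 and 101 CPM in VC3201 on elt-2 RNAi, a change of the strain difference of 4.96 (SE 0.28, adjusted p = 5.9e-15). The 2 that stayed lower were dpy-14, with differences of -1.86 on cco-1, -3.30 on elt-2 and -2.51 on both RNAi, and dpy-17, with -1.15 on cco-1, -3.05 on elt-2 and -2.51 on both RNAi. On cco-1 RNAi the body-shape list had 5 higher and 2 lower, with a median of -0.08. The numbered collagens had 73 higher and 18 lower there, with a median of 0.53. The 6 furrow collagens were all still lower, with a median of -0.75. Among all tested genes 26.6% were higher and 29.2% lower on cco-1 RNAi. On elt-2 RNAi all 6 furrow collagens were higher, with a median of 1.12, and on both RNAi all 6 were higher too, with a median of 1.83.

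Most molting genes changed sides on elt-2 RNAi. On cco-1 RNAi 12 of 24 were lower and 5 higher, against 29.2% and 26.6% of all tested genes. On elt-2 RNAi 20 were higher and 1 lower, against 33.1% and 44.8% of all tested genes. mlt-11 differed by -2.63 on control RNAi and by -1.60 on cco-1, 1.40 on elt-2 and 2.32 on both RNAi. On elt-2 RNAi it stood at 44.4, 55.3 and 49.1 CPM in N2, close to its level on control RNAi, and at 119, 135 and 143 CPM in VC3201. Of the 24 muscle genes, 14 were higher and 1 lower on cco-1 RNAi, and 12 were higher and 4 lower on elt-2 RNAi.

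**Figure D5:**
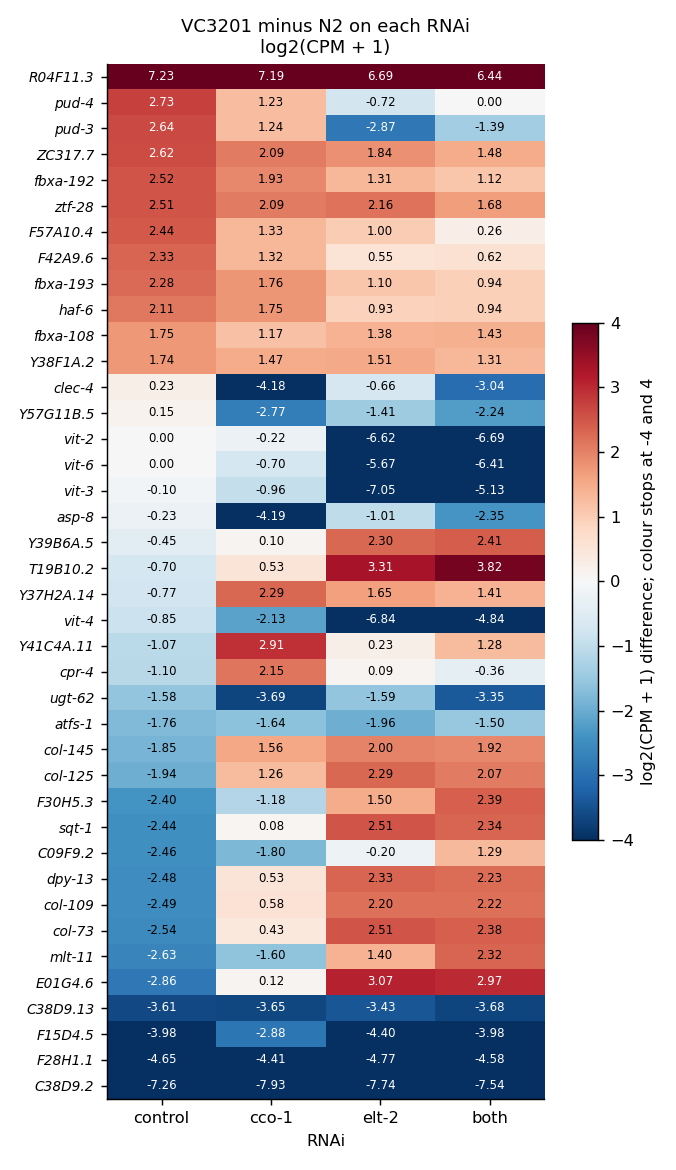
Strain difference (VC3201 minus N2, log2(CPM + 1)) on control, cco-1, elt-2 and both RNAi for atfs-1, the 24 genes furthest apart on control RNAi and the genes whose strain difference changed with the smallest p-values on cco-1 or elt-2 RNAi. C38D9.2, F28H1.1 and R04F11.3 keep their colour in all 4 columns, whereas the collagens col-73, col-109, sqt-1 and dpy-13 turn from negative on control RNAi to positive on elt-2 RNAi.

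The strain difference itself changed on cco-1 RNAi at 5819 genes (40.0% of those tested), 2448 toward VC3201 (16.8%) and 3371 toward N2 (23.2%), and on elt-2 RNAi at 10603 genes (72.8%), 4467 toward VC3201 (30.7%) and 6136 toward N2 (42.1%). col-145 stood at 25.7, 28.7 and 27.3 CPM in N2 and 6.096, 7.01 and 7.45 CPM in VC3201 on control RNAi, and at 37.6, 39.2 and 38.6 CPM in N2 and 112, 116 and 118 CPM in VC3201 on cco-1 RNAi. Its difference changed by 3.41 (SE 0.12, adjusted p = 6.6e-19). cpr-4, lower in VC3201 on control RNAi, stood at 35.6, 35.03 and 36.3 CPM in N2 and 163, 154 and 169 CPM in VC3201 on cco-1 RNAi, a change of 3.25 (SE 0.11, adjusted p = 6.6e-19). In N2 it lay far below the control level there, in VC3201 above it. ugt-62 rose in N2 to 413, 417 and 419 CPM on cco-1 RNAi and stood at 30.3, 33.3 and 30.8 CPM in VC3201, a change of -2.10 (SE 0.08, adjusted p = 3.8e-18). Its difference on elt-2 RNAi was -1.59, close to that on control. Y41C4A.11, a gene with no assigned name, stood in VC3201 at 156, 168 and 165 CPM on cco-1 RNAi, and in N2 at 19.2, 21.2 and 21.99, a change of 3.98 (SE 0.10, adjusted p = 9.9e-22).

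Strain differences that were absent from the calls on control RNAi appeared on the others. The aspartyl protease gene asp-8 stood at 6.82, 6.81 and 8.72 CPM in N2 and 5.098, 7.52 and 6.16 CPM in VC3201 on control RNAi (adjusted p = 0.065, and under 0.05 without N2 replicate 1, N2 replicate 2 or VC3201 replicate 2). On cco-1 RNAi it stood at 105, 103 and 106 CPM in N2 and 4.92, 4.68 and 4.74 CPM in VC3201, a change of -3.97 (SE 0.14, adjusted p = 1.9e-18). clec-4, called on control only without N2 replicate 1, changed by -4.41 (SE 0.14, adjusted p = 2e-19). Yolk genes moved far toward N2 on elt-2 RNAi. vit-6 held its rank in N2, at 19459 CPM in each library, and stood at 386, 345 and 420.2 CPM in VC3201, a change of -5.67 (SE 0.09, adjusted p = 4.1e-27). vit-4 stood at 264, 203 and 209.9 CPM in N2 and 0.854, 0.828 and 1.22 CPM in VC3201 there, a change of -5.99 (SE 0.12, adjusted p = 1.1e-24). The pud genes moved likewise. pud-3 stood at 11.8, 8.09 and 10.7 CPM in N2 and 0.51, 0.494 and 0.545 CPM in VC3201 on elt-2 RNAi, the reverse of the order on control.

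Mitochondrial and sperm lists also differed by RNAi. The mitochondrial ribosome list, with 49 of 66 higher on control RNAi, had 2 higher and 22 lower on cco-1 RNAi and 2 higher and 55 lower on elt-2 RNAi, against 29.2% and 44.8% of all tested genes lower. Import genes, with 10 of 18 higher on control RNAi, had 2 higher and 9 lower on cco-1 RNAi. The protein genes of the mitochondrial genome, with 10 of 11 higher on control RNAi, had 3 higher and 3 lower on cco-1 RNAi (median -0.11). They had 3 higher and 4 lower on elt-2 RNAi (median -0.05), and 7 higher and 0 lower on both RNAi (median 0.35). hsp-60 differed by 0.03 on control RNAi and by -0.39 on cco-1, -1.29 on elt-2 and -1.66 on both RNAi. tomm-20 remained higher in VC3201, with 0.52 on cco-1, 0.68 on elt-2 and 0.42 on both RNAi. The cytosolic ribosome list stayed on 1 side on cco-1 and elt-2 RNAi, with 61 and 64 of 78 higher, against 26.6% and 33.1% of all tested genes. The sperm list stayed higher too, with 53 of 69 higher on cco-1 RNAi and 65 on elt-2 RNAi, against the same shares. Its sum on elt-2 RNAi was 1459.7, 1317 and 1494 CPM in N2 and 7017, 6995 and 6568 CPM in VC3201.

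The 120 genes that differed at least 2-fold in the same direction on all 4 RNAi included few collagens and no listed molting gene. Of the 32 higher ones, 11 were major sperm protein genes and 6 belonged to the nspc and nspd families of small nematode-specific peptides. K04H4.5 stood at 0.318, 0.206 and 0.336 CPM in N2 and 10.1, 9.71 and 9.07 CPM in VC3201 on control RNAi (difference 3.04, SE 0.10, adjusted p = 1.7e-19), and its difference was 3.93 on cco-1, 5.03 on elt-2 and 4.91 on both RNAi. C29H12.2 stood at 55.4, 55.1 and 53.5 CPM in N2 and 147, 148 and 144 CPM in VC3201 (difference 1.40, SE 0.07, adjusted p = 3.7e-16). Among the 88 lower ones, lin-15B, which with lin-15A acts in the synthetic multivulva pathway, stood at 225, 238 and 226 CPM in N2 and 51.01, 55.3 and 53.96 CPM in VC3201 (difference -2.09, SE 0.05, adjusted p = 1.5e-23). lin-15A, which it overlaps, stood at 67.5, 67.9 and 62.4 CPM in N2 and 24.1, 24.8 and 23.7 CPM in VC3201 (difference -1.41, SE 0.06, adjusted p = 1.6e-16). lin-59, a chromatin regulator related to trithorax-group proteins, stood at 194, 194 and 194 CPM in N2 and 57.9, 59.2 and 59.2 CPM in VC3201 (difference -1.71, SE 0.06, adjusted p = 6.3e-19), with -1.69 on cco-1, -1.19 on elt-2 and -1.03 on both RNAi. The 120 were chosen by calls and size of difference, control RNAi included, so the lack of overlap between the strains at these genes is no further result.

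Other genes of these 120 had known roles in signalling and metabolism, and the size of the difference changed with the RNAi at several of them. pmk-2, a p38 MAP kinase, stood at 18.9, 18.4 and 17.5 CPM in N2 and 5.45, 4.94 and 4.66 CPM in VC3201 (difference -1.68, SE 0.07, adjusted p = 7.5e-17), with -1.96 on cco-1, -1.80 on elt-2 and -1.62 on both RNAi. The chitinase gene cht-1 stood at 93.8, 93.02 and 86.8 CPM in N2 and 24.3, 26.7 and 24.2 CPM in VC3201 (difference -1.82, SE 0.07, adjusted p = 3.5e-18), and its difference grew to -3.94 on elt-2 RNAi. The caveolin gene cav-1 stood at 57.7, 61.6 and 61.3 CPM in N2 and 20.9, 21.1 and 24.1 CPM in VC3201 (difference -1.41, SE 0.08, adjusted p = 1.5e-14). Its difference was -2.14 on cco-1, -3.81 on elt-2 and -4.19 on both RNAi. jmjd-3.2, a histone demethylase gene related to jmjd-3.1, was lower (difference -1.72, SE 0.16, adjusted p = 4.7e-10), as was the choline kinase gene ckb-2 (difference -1.65, SE 0.07, adjusted p = 7e-17), with -2.62 on cco-1, -2.39 on elt-2 and -3.18 on both RNAi. These genes were picked from the 120 after their values were seen.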

How the data were processed

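RNA was sequenced on a BGISeq500 after polyA enrichment, per the labels' protocols. The authors deposited CPM for 16927 genes in 24 libraries, which their key sheet calls normalized counts; each library sums to 1000373 CPM, and sorted libraries agreed within 1% at 52.6% of ranks, from which quantile normalization was inferred. STAR 2.73a, edgeR 3.24.3 and the build WBcel235 (ce11) are named in the submitters' processing notes, while no counter or annotation release is named there or in the labels. Genes with a group mean of at least 1 CPM were fitted as log2(CPM + 1) by limma 3.58.1 (R 4.3.3) on 8 group means, with 16 residual degrees of freedom, an intensity trend and 2-sided tests. The pipeline was tested on simulated data. Reads were ranked back from tied low values. Such reads differed between replicates beyond sampling noise (chi-square 1.25 to 1.56 a gene), and no pair was identical.

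The members and the 43 lists were chosen with earlier results of these data known. Lists were described by counts and medians, with no list test. Named genes are atfs-1 and its neighbours, the 12 largest differences in each direction above 10 CPM without overlap, up to 4 members of each list with the smallest p, all members of the mitochondrial chaperone, import and regulator lists, and the 4 smallest p in each direction of each interaction; others are marked. The text gives some of these. Positions come from Ensembl 115, which held 14487 of the tested genes. 17 listed symbols were not matched. Alternatives were pseudocounts of 0.5 and 5, filters, limma-voom, a 2-fold minimum, the replicate block, only the groups compared, and each library left out.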

Additional observations from a re-analysis of the deposited data

Results flagged for a closer look

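The strain difference was not the same on other RNAi, by a limma test of the difference itself. On cco-1 RNAi it differed from control at 5819 genes and on elt-2 RNAi at 10603 genes of the 14561 tested. On cco-1 RNAi the named genes that moved toward VC3201 were Y41C4A.11 by 3.98, col-145 by 3.41, cpr-4 by 3.25 and Y37H2A.14 by 3.07 on the log2(CPM + 1) scale. Those that moved toward N2 were clec-4 by -4.41, asp-8 by -3.97, Y57G11B.5 by -2.92 and ugt-62 by -2.10. On elt-2 RNAi col-125 moved by 4.24, T19B10.2 by 4.01, col-145 by 3.85 and Y39B6A.5 by 2.75 toward VC3201. The yolk genes vit-3, vit-2, vit-4 and vit-6 moved by -6.95, -6.62, -5.99 and -5.67 toward N2. At Y37H2A.14 the libraries stood at 16.08, 16.3 and 15.97 CPM in N2 and 84.2, 77.1 and 88 CPM in VC3201 on cco-1 RNAi, against 6.54, 7.47 and 8.18 CPM in N2 and 3.66, 3.44 and 4.66 CPM in VC3201 on control. At T19B10.2 they stood at 63.4, 72.3 and 65.98 CPM in N2 and 653, 726 and 647 CPM in VC3201 on elt-2 RNAi, against 55.9, 68.4 and 62.3 CPM in N2 and 38.02, 37.8 and 37.3 CPM in VC3201 on control. At Y57G11B.5 they stood at 25.9, 24.1 and 23.4 CPM in N2 and 3.36, 2.65 and 2.27 CPM in VC3201 on cco-1 RNAi, against 67.9, 76.8 and 77.4 CPM in N2 and 83.4, 82.8 and 79.7 CPM in VC3201 on control. vit-2 and vit-6 hold the top ranks on control RNAi, where their values are nearly the same in every library, and T19B10.2, Y39B6A.5 and col-125 overlap other genes in the annotation. With 3 libraries a group, single outlying libraries were not tested for.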

How the results depend on the processing

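Requiring a 2-fold change cut the counts to 122 higher, 427 lower, 695 for the change on cco-1 RNAi and 3465 for that on elt-2 RNAi. Under the other alternatives planned, each of these counts stayed within 1.5 times its value. With 1 library left out, 3365 to 3546 genes were higher, 2921 to 3092 lower, and the strain difference changed at 5241 to 5853 genes on cco-1 RNAi and at 10302 to 10491 on elt-2 RNAi; atfs-1 stayed between -1.806 and -1.726. The 2-fold minimum kept 549 of the 7179 calls (7.65%). Under each other alternative named in the methods, between 81.1 and 98.9% were kept in the same direction, and none was called in the opposite one; of these, the lowest share came with the filter at 5 CPM, which tests fewer genes. Over all tested genes, same-numbered control libraries of the strains did not deviate together (correlations 0.02, 0.023 and -0.034). The summed body-shape collagens still had replicate 1 lowest and replicate 2 highest in both strains on control, cco-1 and elt-2 RNAi. Whether the numbers pair libraries is therefore unknown. The replicate block gave 3895 higher, 3281 lower, and 5822 and 10606 changes on cco-1 and elt-2 RNAi. Of 364 gene results compared, 344 kept their side of the threshold under every alternative run for them (the 2-fold minimum was run for counts only), and none reversed. Ranking reads back, chosen after seeing the data, gave 728 higher and 864 lower of 5456 genes, against 937 and 790 on CPM; 1515 were called by both in the same direction and none in opposite ones, and the median difference of the 5456 was 0.021 against 0.074. Quantile normalization removes any change in total RNA or in the shape of the distribution, and values of the top ranks carry no error of their own.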

Other observations

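Among the F-box genes outside the stretch of chromosome V described above, fbxa-182 was lower in VC3201 on control RNAi, at 7.92, 8.38 and 8.32 CPM in N2 and 2.84, 3.61 and 2.903 CPM in VC3201 (difference -1.17, SE 0.07, adjusted p = 1.2e-13), and differed by 0.23 on cco-1, 0.66 on elt-2 and 0.05 on both RNAi. Of the insulin-like and neuropeptide genes, ins-31 stood at 2.45, 3.34 and 3.15 CPM in N2 and 0.744, 0.343 and 0.022 CPM in VC3201 (difference -1.57, SE 0.18, adjusted p = 4.2e-08) and kept a difference of -1.57 on cco-1, -1.93 on elt-2 and -1.35 on both RNAi. nlp-34, a gene of the family of antimicrobial and neuropeptide-like proteins, stood at 3.57, 3.00 and 3.22 CPM in N2 and 0.446, 0.239 and 0.299 CPM in VC3201 (difference -1.68, SE 0.14, adjusted p = 1.6e-10) and was higher in VC3201 on cco-1 RNAi, by 0.96. pqn-74, listed with the oocyte genes, stood at 36.7, 40.3 and 36.96 CPM in N2 and 12.3, 12.1 and 14.5 CPM in VC3201 (difference -1.48, SE 0.09, adjusted p = 1.7e-13) and was higher on the others, with 0.58 on cco-1, 1.83 on elt-2 and 1.73 on both RNAi. sqst-1 also changed sides, with -0.63 on control RNAi and 1.34 on cco-1, 1.61 on elt-2 and 1.83 on both RNAi.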
